A study of Homo sapiens with 4 samples.

Results

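PML and RARA are the genes joined in acute promyelocytic leukemia, and the peaks described here are those that antibodies against PML/RARA and PPARα gave over these genes and 50 kb on each side of them. The members were fixed by name, 2 of the 19974 protein-coding genes on chromosomes 1 to 22 and X, and their positions are those of RefSeq on GRCh38, the assembly called hg38. PML lies on chromosome 15 from 73994716 to 74047827, a length of 53.1 kb, and RARA on chromosome 17 from 40309180 to 40357643, a length of 48.5 kb. The windows held 11 of the 45988 PML/RARA peaks and 2 of the 9819 PPARα peaks around PML, and 13 PML/RARA and 3 PPARα peaks around RARA.

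The study profiled NB4, a human promyelocytic leukemia cell line that carries the fusion, by CUT&Tag, a method in which a transposase guided by an antibody cuts and tags nearby chromatin for sequencing. Its 4 libraries were 1 with a PML/RARA antibody and 1 with a PPARα antibody, each labelled Treatment, and an IgG library for each, labelled Control. All came from the 1 cell line, and no drug is named in the labels. Each antibody has 1 peak list and no replicate, so values are given without a spread or a test, and the read depth is unknown.

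PML is a RING-finger scaffold protein that builds the PML nuclear bodies, and RARα, the product of RARA, is a nuclear receptor that binds DNA with a retinoid X receptor (RXR) and switches genes on when retinoic acid is bound. The translocation between chromosomes 15 and 17 fuses the front part of PML to the DNA-binding and ligand-binding parts of RARα, and the fusion protein holds back granulocytic differentiation until treatment with retinoic acid or arsenic breaks it down. PPARα is a fatty acid-sensing nuclear receptor that also pairs with RXR. Breakpoints fall in defined introns of PML and RARA, but the gene table used here gives no exons, so peaks are placed by their distance from the ends of each gene and not against those introns. The lists do not separate the normal from the rearranged chromosomes, and which part of the fusion protein its antibody recognises is not stated in the labels.

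RefSeq lists 3 starts for RARA, and the start of LOC105371934, a long noncoding RNA gene on the opposite strand, lies under the peak with the highest −log10 q of both windows. These 4 promoters are shown because the peaks at RARA differ between them. Each runs from 250 bases before to 50 bases after a start, 5′ to 3′ on the strand of its gene, from RefSeq on GRCh38.p14. Capitals mark matches on either strand to AGGTCA or its close forms (GGGTCA, then AGTTCA, then GGTTCA), core hexamers that retinoic acid receptors and PPARs bind in pairs, or to AGGAAG, a core of ETS factor sites.
RARA, start at the lower end, chr17:40308930-40309229, plus strand: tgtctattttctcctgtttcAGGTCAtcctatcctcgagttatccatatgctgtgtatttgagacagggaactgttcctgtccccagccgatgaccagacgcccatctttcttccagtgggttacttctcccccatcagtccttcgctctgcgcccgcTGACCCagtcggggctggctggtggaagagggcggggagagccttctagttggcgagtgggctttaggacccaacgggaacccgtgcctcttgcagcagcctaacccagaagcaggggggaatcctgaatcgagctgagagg
RARA, start 9.065 kb inside, chr17:40317995-40318294, plus strand: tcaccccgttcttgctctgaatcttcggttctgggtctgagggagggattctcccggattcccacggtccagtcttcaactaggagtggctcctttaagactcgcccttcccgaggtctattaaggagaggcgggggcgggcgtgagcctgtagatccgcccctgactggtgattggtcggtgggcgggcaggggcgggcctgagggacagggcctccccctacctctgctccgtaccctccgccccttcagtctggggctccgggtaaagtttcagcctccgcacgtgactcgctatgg
RARA, start 32.986 kb inside, chr17:40341916-40342215, plus strand: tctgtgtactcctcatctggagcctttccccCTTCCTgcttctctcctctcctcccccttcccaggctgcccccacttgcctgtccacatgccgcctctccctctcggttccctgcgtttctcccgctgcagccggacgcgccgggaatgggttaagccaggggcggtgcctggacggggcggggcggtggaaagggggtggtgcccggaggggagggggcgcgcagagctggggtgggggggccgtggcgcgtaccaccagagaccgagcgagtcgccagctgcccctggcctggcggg
LOC105371934, start 13.344 kb inside RARA, chr17:40322475-40322774, minus strand: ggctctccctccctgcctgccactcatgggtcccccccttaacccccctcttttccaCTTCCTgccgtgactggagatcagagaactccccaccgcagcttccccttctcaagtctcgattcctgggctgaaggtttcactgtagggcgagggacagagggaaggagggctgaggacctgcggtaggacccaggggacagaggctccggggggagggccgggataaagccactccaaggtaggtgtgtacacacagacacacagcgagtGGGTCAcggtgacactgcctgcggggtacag

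The start at the lower end of RARA held 2 receptor hexamers, an AGGTCA that began 230 bases before the start and a GGGTCA on the opposite strand that began 92 bases before it. This window overlapped no peak of either list: the nearest PML/RARA peak ended 1278 bases away and the nearest PPARα peak began 8668 bases away. The start 9.065 kb inside the gene held none of the 5 hexamers, and peaks of both lists lay over it, sharing 229 bases of the window with PML/RARA and 300 with PPARα. The start 32.986 kb inside held an AGGAAG match alone, and a PML/RARA peak ended at the base just before the window. The promoter of LOC105371934 was covered over 300 bases by PML/RARA and over 202 by PPARα, and held an AGGAAG match and a GGGTCA that began 19 bases after the start.

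So 1 of the 3 RARA starts overlapped a peak, with both antibodies. Over 22132 listed starts of protein-coding genes, 48.4% overlapped a PML/RARA peak and 27.7% a PPARα peak. Of the 853 genes with 3 listed starts, 193 (22.6%) had PML/RARA at exactly 1 start, 273 (32.0%) at none and 387 (45.4%) at 2 or 3. At least 1 of the 4 receptor hexamers occurred in 35.5% of all these promoters and AGGAAG in 33.5%. Direct repeats of the receptor hexamers with spacers of 1, 2 or 5 bases occurred in 0.131%, 0.0361% and 0.0768% of promoters and in none of the 4 shown.

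Values for the whole lists set the scale for the peaks below. The authors' lists carry no header, so their columns were read by the narrowPeak layout, and the names fold and −log10 q rest on that layout. Fold enrichment, read as a linear ratio of a peak over background, had a median of 7.41 over PML/RARA peaks and 6.26 over PPARα peaks. The −log10 q, read as the significance of a peak, had medians of 11.9 and 6.33. Folds are not compared between antibodies. PML/RARA peaks lay within 1 kb of an annotated end of 57.8% of protein-coding genes and PPARα peaks of 32.3%. By the same rule 3 of 5 promyelocyte markers carried a PML/RARA peak at an end (MPO, AZU1 and PRTN3, but not ELANE or CTSG), against 3 of 4 lymphoid, 0 of 4 erythroid and 1 of 4 liver markers. PPARα peaks lay at the ends of 1 of 5 promyelocyte (MPO), 1 of 4 lymphoid, 0 of 4 erythroid and 0 of 4 liver markers. Peaks mark chromatin and not RNA, so this is no check of expression.

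PML carried its main peaks at its start, and its body was otherwise nearly free of them. The start peak of PML/RARA, from 73994530 to 73994854, had 13.4-fold enrichment and a −log10 q of 65.3, and its summit lay 8 bases inside the gene. The PPARα peak there, from 73994642 to 73995033, had 6.56-fold enrichment and a −log10 q of 6.62, and its summit lay 131 bases from the PML/RARA summit. The peaks shared 213 bases. PML is transcribed away from its neighbour STOML1, a stomatin-like protein gene whose upper end lies 93 bases below PML, so the PML/RARA peak covers the start of both genes and cannot be given to one of them.

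The remaining PML/RARA peak in the body of PML was weak. It ran over 106 bases from 74033066 to 74033171, 38.4 kb into the gene and 14.7 kb from its upper end. Its fold was 4.09, which 88.0% of PML/RARA peaks matched or passed, and its −log10 q was 2.85, matched or passed by 92.0%. It was not in the lists of peaks with fold of at least 5 or −log10 q of at least 5. Between it and the start peak lay 38.2 kb with no PML/RARA peak, the widest gap between neighbouring PML/RARA peaks in the window. No PPARα peak lay there, and the next PPARα peak began 53.1 kb after the one at the start.

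Most PML/RARA peaks of the PML window lay outside the gene. Below PML there were 7 in 50 kb, or 1.4 per 10 kb, in the body 2, or 0.377 per 10 kb, and above it 2, or 0.4 per 10 kb. The 7 lay in and beyond STOML1, between it and LOXL1, a lysyl oxidase-like gene that crosslinks elastin, and inside LOXL1. One of them ran from 73992166 to 73992524, 12.5-fold enriched and with −log10 q 60.6, over a second listed start of STOML1 that lies 2.4 kb below PML. The other 6 had folds from 6.80 to 12.0 and −log10 q from 8.35 to 20.2. No PPARα peak lay wholly below PML.

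Just beyond the upper end of PML both lists had a peak again. The PML/RARA peak from 74048267 to 74048638 was 8.91-fold enriched (−log10 q 17.7), and the PPARα peak from 74048175 to 74048498 was 5.56-fold enriched (−log10 q 4.51). Their summits lay 194 bases apart, 0.706 kb and 0.512 kb past the end of the gene. The highest fold of the window, 20.6, belonged to a PML/RARA peak from 74054132 to 74054351 without PPARα, 6.40 kb past the end and outside any annotated gene. Only 7.05% of PML/RARA peaks had a fold this high. No peak of either list lay over GOLGA6A, a golgin gene, or further up in the window.

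RARA showed the opposite layout, with most of its peaks inside the gene. Its body held 9 PML/RARA peaks, or 1.86 per 10 kb, against 3 below it, or 0.6 per 10 kb, and 1 above it, or 0.2 per 10 kb. None lay within 1 kb of either annotated end. The peaks covered 2803 bases of RARA, or 5.78% of its body, and 245 bases of PML, or 0.461%. PPARα peaks covered 1370 bases of RARA and 318 bases of PML.

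**Figure D1:**
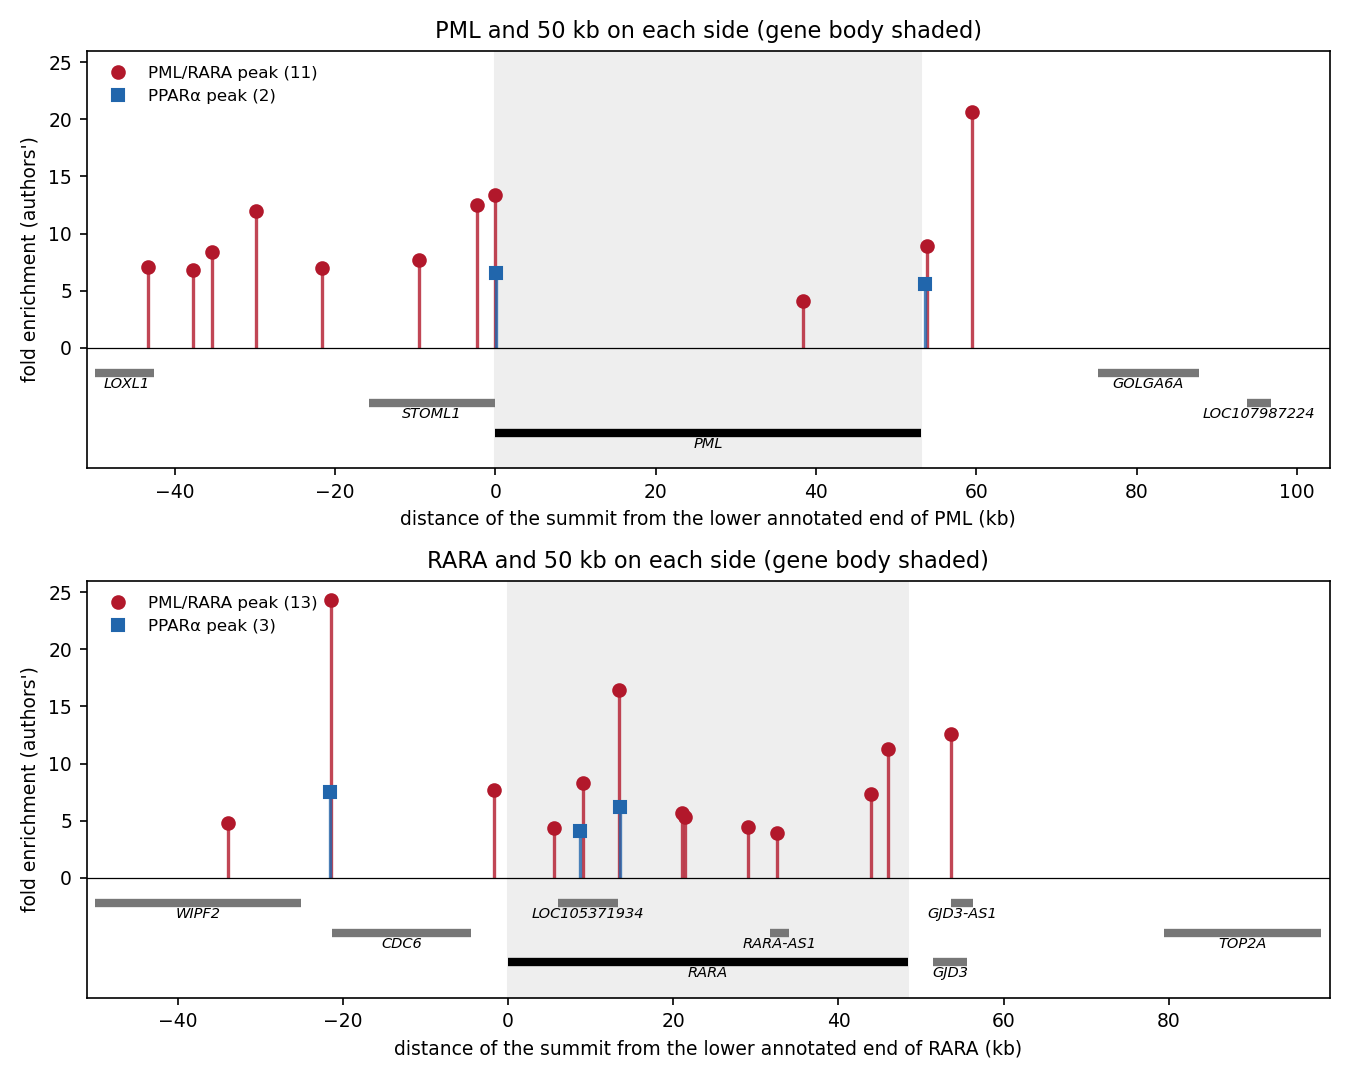
Peaks over PML (top) and RARA (bottom) with 50 kb on each side. The horizontal axis is the distance of each summit from the lower annotated end in kb, the vertical axis the authors' fold enrichment, red circles are PML/RARA peaks, blue squares PPARα peaks, the shading is the gene body and the bars below are annotated coding and long noncoding genes. PML has 2 PML/RARA peaks in its body and RARA has 9.

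The peaks with the highest −log10 q in RARA lay in its lower part, and these were the ones with PPARα. A PML/RARA peak of 948 bases ran from 40322297 to 40323244, 13.4 kb into the gene, 16.5-fold enriched and with a −log10 q of 317. It ranked 404th of the PML/RARA list by −log10 q, in the top 0.878%, and 940th by width, in the top 2.05%, but 6498th by fold, in the top 14.1%. A PPARα peak from 40322573 to 40323198, 6.21-fold enriched and with −log10 q 10.4, lay wholly within it, its summit 165 bases away. The PML/RARA summit lay 56 bases before the listed start of LOC105371934, whose promoter is printed above.

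The second shared site lay over the start 9.065 kb inside RARA. The PML/RARA peak from 40318066 to 40318361 was 8.27-fold enriched, its −log10 q was 102, and its summit lay 32 bases before that start, inside the body of LOC105371934 as well. The PPARα peak was wider, 744 bases from 40317898 to 40318641, and held the PML/RARA peak whole. Its fold of 4.10 and −log10 q of 3.26 were low for its list, since 92.7% of PPARα peaks had a fold as high. Its summit lay 276 bases from that of PML/RARA, so the 2 summits were more than 200 bases apart.

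The other 7 PML/RARA peaks of the RARA body had no PPARα peak. They were 177 to 303 bases wide. One lay 5.62 kb into the gene, 4.39-fold enriched and with −log10 q 12.8. A close pair, 126 bases apart, lay 21.0 and 21.4 kb in, with folds of 5.65 and 5.33, and single peaks followed at 29.1 kb (fold 4.49) and 32.5 kb (fold 3.96). The last of these, from 40341613 to 40341915, is the one next to the innermost listed start and lies inside RARA-AS1, an antisense RNA gene. Toward the upper end were peaks at 44.0 kb (fold 7.30, −log10 q 17.9) and, 2465 bases from that end, a peak of fold 11.3 and −log10 q 36.6.

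In the flanks of RARA the peaks of highest fold lay at the starts of its neighbours. At CDC6, which encodes a replication licensing factor, a PML/RARA peak from 40287516 to 40288157 was 24.3-fold enriched, the highest fold of both windows and in the top 3.04% of its list, and its −log10 q was 147. The PPARα peak there, from 40287572 to 40288346, was 7.50-fold enriched (−log10 q 9.73). A PML/RARA peak without PPARα, with a fold of 12.6, lay at the start of GJD3-AS1 within the connexin gene GJD3. The remaining pair of PML/RARA peaks lay 1637 bases below RARA (fold 7.72) and inside WIPF2, an actin regulator gene (fold 4.77). The part of TOP2A, the topoisomerase gene, that reaches into the window had no peak.

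Every PPARα peak of the windows overlapped a PML/RARA peak, 2 of 2 around PML and 3 of 3 around RARA, where 90.1% of all PPARα peaks did so. With so few peaks the exact 95% intervals reach down to 15.8% and 29.2%. Counted the other way, 2 of the 11 PML/RARA peaks around PML (18.2%) and 3 of 13 around RARA (23.1%) overlapped PPARα, against 21.4% of the whole PML/RARA list. These shares lie close to those of the lists. The 5 shared sites were the common start of PML and STOML1, the upper end of PML, the start of CDC6, and the 2 sites inside RARA.

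Set against genes of like length, RARA carried many PML/RARA peaks and PML a usual number. Like length means 0.8 to 1.2 times the length of the gene, which gave 2031 protein-coding genes for RARA and 2006 for PML. RARA had 9 PML/RARA peaks in its body, against a median of 1 (quartiles 1 and 3, highest 15), and 40 of the 2031 genes (1.97%, exact 95% interval 1.41 to 2.67) had as many or more. With only the 9819 PML/RARA peaks of highest −log10 q, as many as the PPARα list holds, RARA kept 2, and 9.36% of genes had as many or more. In the full list PML had 2, against a median of 1 (quartiles 1 and 3, highest 15), and 918 of the 2006 genes (45.8%, 43.6 to 48.0) had as many or more. At least 1 PML/RARA peak lay in 80.5% of the genes of the length of RARA and in 79.8% of those of the length of PML, so carrying a peak is common. These intervals cover the number of genes compared and no variation between libraries.

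The pattern was alike for PPARα at the level of counts. RARA had 2 PPARα peaks in its body, against a median of 0, and 98 of 2031 genes (4.83%, exact interval 3.93 to 5.85) had as many or more. PML had 1, and 914 of 2006 genes (45.6%) had as many or more. At least 1 PPARα peak lay in 44.2% of the genes of the length of RARA and in 45.6% of those of the length of PML. For RARA this rests on the weak peak over its listed start 9.065 kb inside. With peaks of fold of at least 5 RARA kept 1 PPARα peak, and 37.0% of genes had as many or more.

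**Figure D2:**
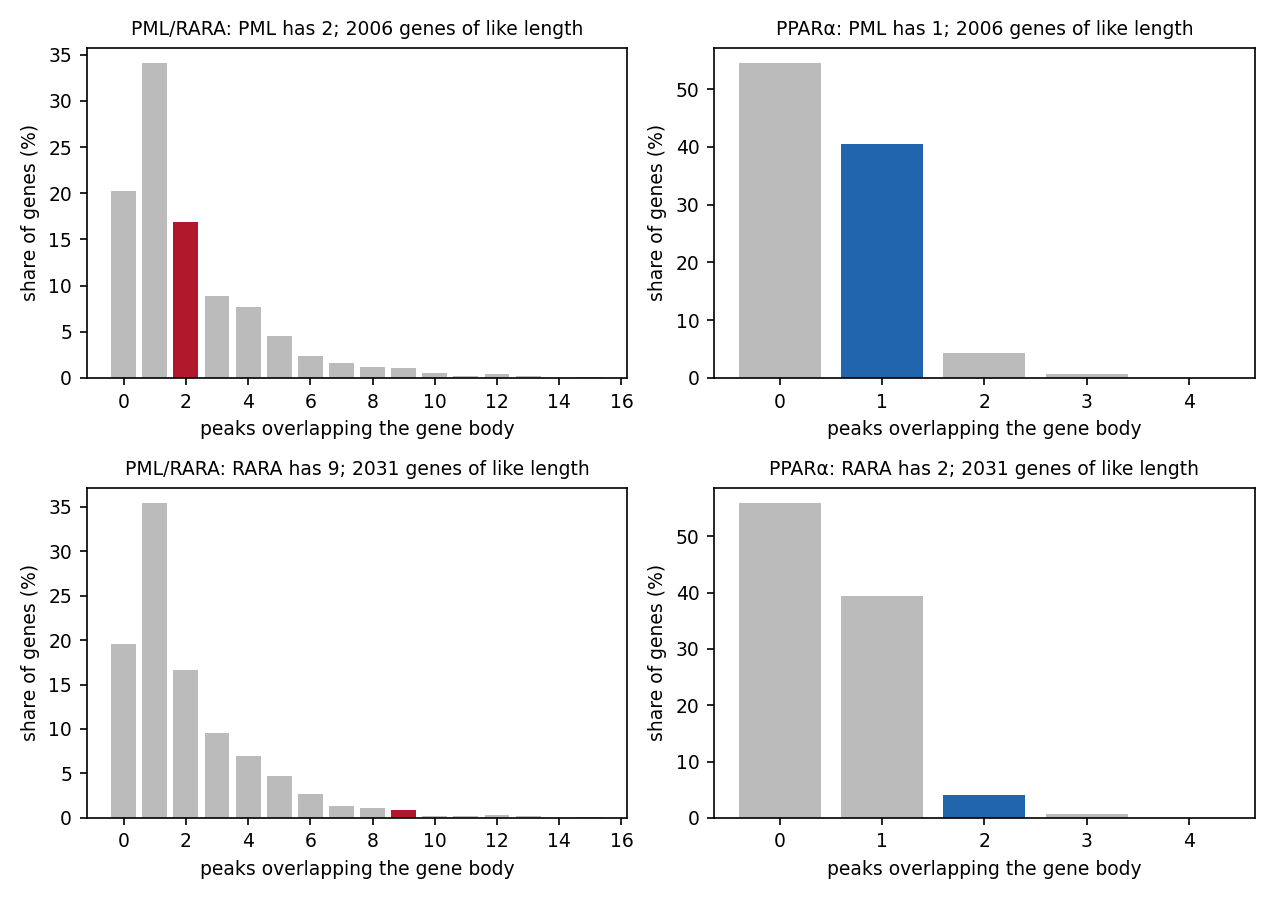
Number of peaks overlapping the gene body (horizontal axis) and share of protein-coding genes of like length with that number in percent (vertical axis), for PML (top) and RARA (bottom), with PML/RARA peaks on the left and PPARα peaks on the right. The coloured bar is the number the named gene has: 2 and 1 for PML, 9 and 2 for RARA.

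The size of the peaks set RARA apart less evenly than their number. The highest fold of a PML/RARA peak in its body, 16.5, was matched or passed by 35.7% of genes of like length. The highest −log10 q, 317, was matched or passed by 1.58%, and the widest peak, 948 bases, by 5.17%. Each is the highest of 9 peaks in RARA, where genes of like length had a median of 1. These shares therefore do not separate size from number. For PML the shares were 48.6% for its highest fold of 13.4, 29.1% for its highest −log10 q of 65.3 and 63.5% for a width of 325 bases. With 50 kb added on each side of every gene, 13.6% of genes had as many PML/RARA peaks as RARA, and 18.0% as many as PML. The lead of RARA was thus larger in the body than in the window. Its window still held 13, against a median of 4 (quartiles 2 and 9). PML ranked higher with its flanks than without.

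The −log10 q of the RARA peaks was high for their fold. This comparison was chosen after the values were seen. Each peak was set beside the peaks of its list with a fold 0.9 to 1.1 times its own. All 9 PML/RARA peaks in the RARA body had a −log10 q above the median of peaks of like fold. So had both PPARα peaks there, which overlap PML/RARA peaks. How often this holds for all body peaks of another gene was not tested. At the site 9.03 kb in, the −log10 q was 102 where peaks of like fold had a median of 12.0, and 1.14% of them reached it. At the site 13.4 kb in it was 317 against 47.0, reached by 1.03%, and for the PPARα peak there 10.4 against 5.94, reached by 2.46%.

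The other 7 PML/RARA peaks of the RARA body were reached by 4.50% to 21.3% of peaks of like fold. Outside the RARA body the values were mixed, with 3 of 4 PML/RARA peaks in the RARA flanks and 7 of 11 in the PML window above the median. The STOML1 peak 2.4 kb below PML, at 60.6 against 26.4, was reached by 12.8%. At CDC6 the PML/RARA −log10 q of 147 stood against a median of 113 and was reached by 32.5% of peaks of like fold. At the PML start 65.3 stood against 30.3 and was reached by 14.7%, and the PML peak 38.4 kb in, at 2.85 against 2.91, was reached by 69.5%. The PPARα peaks of the PML window, with −log10 q of 6.62 and 4.51, lay just under the medians of 6.77 and 4.76. Read counts and IgG signal over the genes were not used here.

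**Figure D3:**
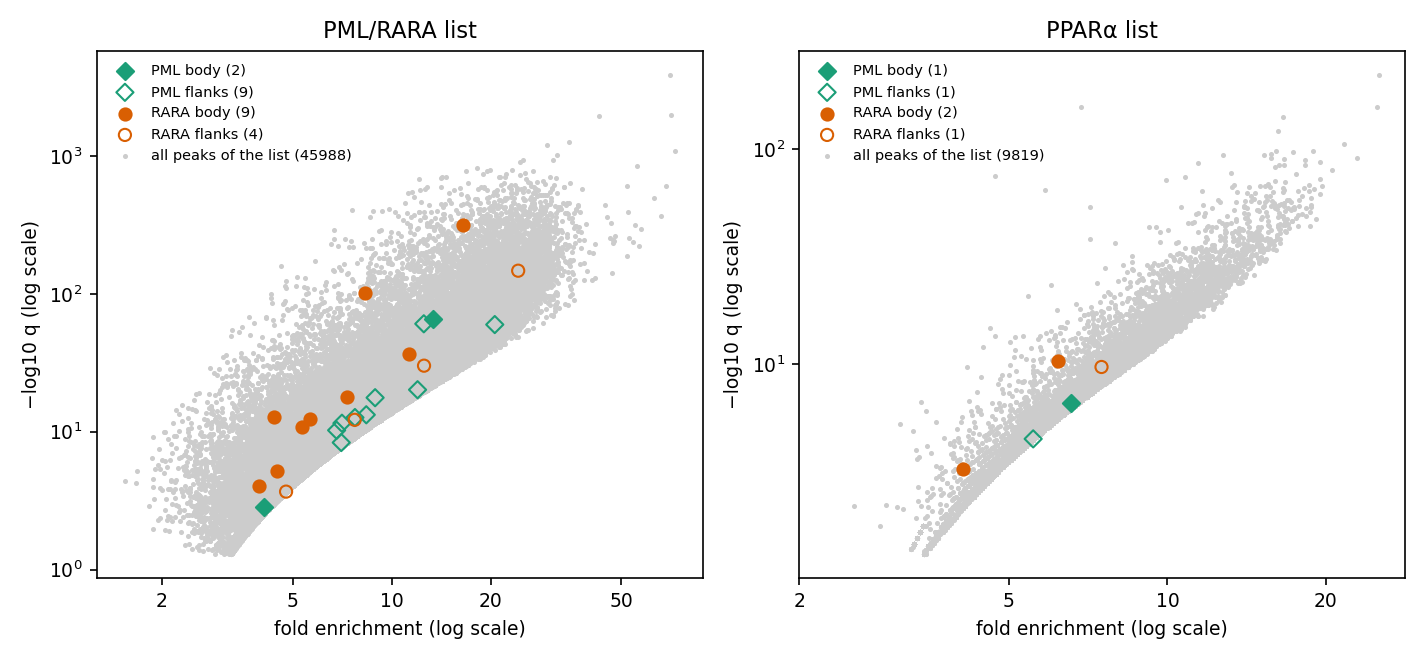
The authors' fold enrichment (horizontal, log scale) and −log10 q (vertical, log scale) of every peak in the PML/RARA list (left) and the PPARα list (right). Green diamonds are peaks of the PML window and orange circles those of the RARA window, filled in the gene body and open in the flanks, and grey dots are all peaks. The 9 filled orange circles on the left each have a −log10 q above the median of peaks of like fold, which the overlapping grey dots do not show by eye.

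The genes of like length closest to RARA in their counts were SULT2B1, LASP1 and RPS6KA1, each with 9 PML/RARA and 2 PPARα peaks, followed by LRRC56 (8 and 2) and SH3BP2 (9 and 1). LASP1, which encodes an actin-binding protein, lies on chromosome 17 as well, and all 5 carried a PML/RARA peak within 1 kb of an end, which RARA did not. For PML, 164 of the 2006 genes had the same counts of 2 and 1. The nearest in length were SMC2, HSPE1-MOB4, ACOT1, SLC6A3 and STK26. Likeness here is the sum of differences in the 2 counts over 1 list each, and only 3 genes matched the counts of RARA exactly.

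Among the retinoid receptor genes RARA came second to RXRB in PML/RARA peaks per length and had nearly the same density as RARG. Against genes of like length the order differed. For RARA 1.97% of those genes had as many PML/RARA peaks or more, for RARG 10.1% and for RXRB 20.3%. RXRA, the main partner of RARα, had 11 PML/RARA and 3 PPARα peaks in its 114 kb body, or 0.964 PML/RARA peaks per 10 kb, and 4.61% of genes of like length had as many or more. RARG had 4 in 21.6 kb, or 1.85 per 10 kb, close to the 1.86 of RARA, with a PML/RARA peak of fold 21.8 and no PPARα peak. RXRB had 2 PML/RARA peaks in 7.27 kb, or 2.75 per 10 kb, and 1 PPARα peak, and both lists had a peak at its ends. RARB, a classic retinoic acid target gene, had 1 PML/RARA peak in 769 kb, and 59.5% of genes of like length had as many or more. RXRG, 44.2 kb long, had none, and neither had 19.5% of the genes of the length of RARA. PML/RARA peaks lay at the ends of 3 of the 6 receptor genes, where 57.8% of all protein-coding genes had one. PPARα peaks lay at those of 1, where 32.3% did, with no allowance for length in either share.

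PML was compared with 12 other genes found fused to RARA in promyelocytic leukemia, a chosen list that may not hold every known partner. All 13 listed genes, with PML itself among them, carried PML/RARA within 1 kb of an end, against 57.8% of all protein-coding genes. A PPARα peak lay there in 8 of 13, against 32.3%. The shares of all genes make no allowance for length. Of the 2006 genes of the length of PML, 33.9% had no PML/RARA peak within 1 kb of either end. Of the 12 others, 9 had more PML/RARA peaks per length than PML, with its 0.377 per 10 kb, and 3 had fewer. Highest was IRF2BP2 (2, or 3.38 per 10 kb), followed by BCOR, a corepressor gene (22, or 1.75 per 10 kb). Also above PML were NABP1 (1, or 1.14 per 10 kb) and STAT5B, a cytokine signal transducer gene (9, or 1.01 per 10 kb). ZBTB16, a zinc finger repressor gene, came next (9, or 0.457 per 10 kb). NPM1, the nucleophosmin gene (1, or 0.420 per 10 kb), and NUMA1, a spindle protein gene (3, or 0.386 per 10 kb), were close to PML. FNDC3B (15, or 0.414 per 10 kb) and GTF2I (4, or 0.388 per 10 kb) were close as well. Below it were PRKAR1A, a protein kinase A subunit gene (0.290), FIP1L1, an RNA 3′ end processing gene (0.120), and TBL1XR1, a corepressor subunit gene (0.0548). The share of genes of like length with as many PML/RARA peaks or more ran from 0.228% for BCOR to 78.3% for FIP1L1. By this share NPM1 (74.5%) and NABP1 (60.5%) ranked below PML (45.8%), and PRKAR1A (26.6%) ranked above it. The other partners stayed on the same side of PML by both measures. The median over the 13 genes was 3 PML/RARA and 1 PPARα peaks, beside 1 and 0 over all protein-coding genes, with no allowance for length.

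Of 8 genes of the PML nuclear body, PML among them, 6 carried PML/RARA within 1 kb of an end and 3 carried PPARα. Of all protein-coding genes 57.8% and 32.3% did so, with no allowance for length. DAXX, a histone chaperone gene (highest PML/RARA fold 21.1), and RNF4, a ubiquitin ligase gene (15.9), carried both, as PML did with 13.4. SP100, ATRX and HIPK2 had PML/RARA alone at their ends. SP110 and SP140, relatives of SP100 on chromosome 2, had no peak of either list. RNF4, of about the length of RARA, had 5 PML/RARA peaks, and 11.5% of genes of like length had as many or more.

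**Figure D4:**
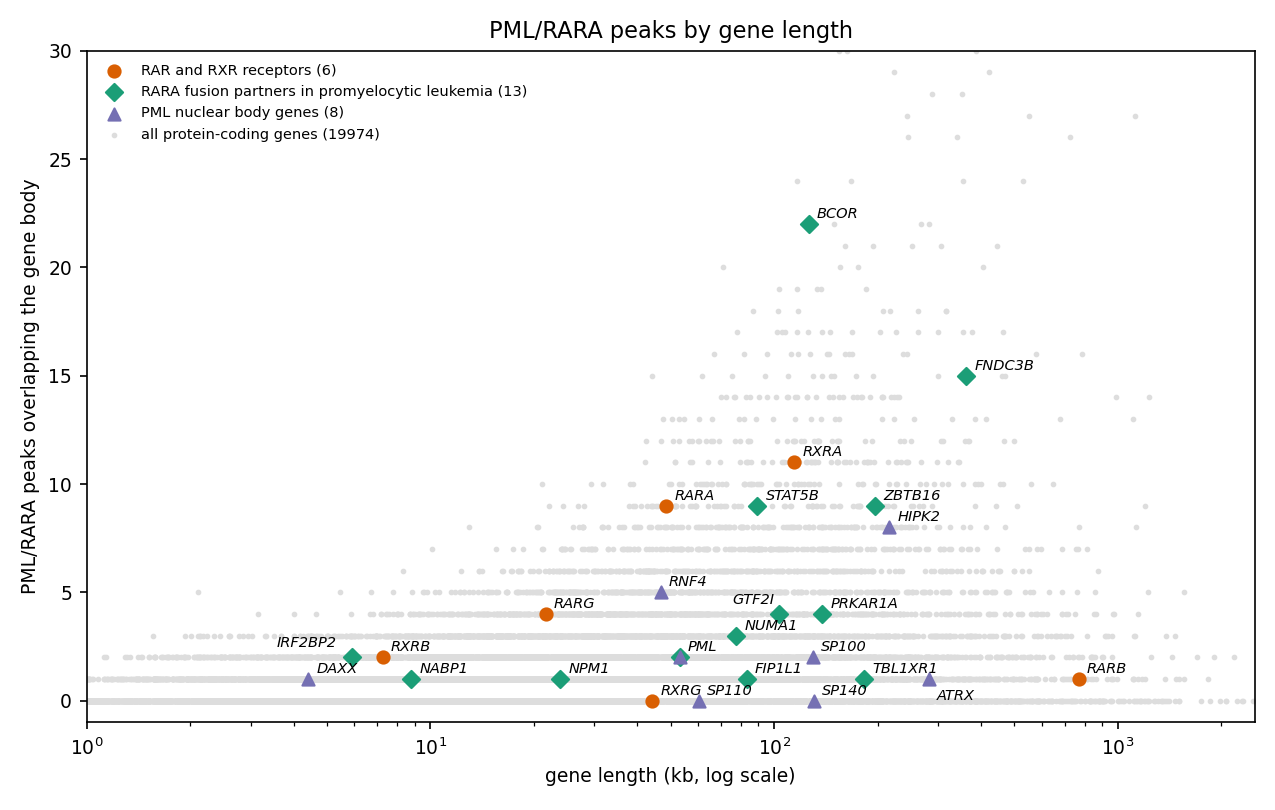
PML/RARA peaks overlapping the gene body (vertical axis) by gene length in kb (horizontal axis, log scale), for retinoid receptors (orange circles), RARA fusion partners (green diamonds), PML nuclear body genes (purple triangles) and all protein-coding genes (grey dots). RARA with 9 peaks lies near the top of the grey dots at its length and PML with 2 within them. The axes leave out 523 genes shorter than 1 kb and 9 genes with more than 30 peaks.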

How the data were processed

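NB4 chromatin was profiled by CUT&Tag. The deposited peak lists give, per the submitters' processing notes, positions on hg38, and those notes list bedtools, MACS 1.4.2, SAMtools and Bowtie2 2.2.9, with no role given. The deposited files have no header and were read by the narrowPeak layout, which is not the usual output of the MACS version named. So the fold, taken as a linear ratio, the −log10 q and the summit offset, another number, are inferred columns of the deposited files. The integer score was the whole part of 10 times the −log10 q column in 46019 of 46021 PML/RARA and 9829 of 9829 PPARα peaks, and each summit lay inside its peak. Neither relation checks the fold column. Use of IgG as control in peak calling is not stated, and the IgG libraries were not analysed here.

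Peaks on chromosomes 1 to 22 and X were kept, leaving out 33 PML/RARA and 10 PPARα peaks. A peak belonged to a region where it shared 1 base with it, and a peak over a gene end was counted with the body. Genes were those of RefSeq on GRCh38.p14. RARA was matched in the promoter table, PML was not, and the listed starts lie on 22 chromosomes. Shares carry exact 95% Clopper-Pearson intervals, for counting error only. No test was made, since each antibody has 1 list. Members, gene lists and comparisons were chosen with earlier results of these data known. Named genes were the members, the genes in their windows, 3 gene lists (2 listed genes are not reported here), marker genes and the 5 genes of like length nearest in counts. Alternatives were stricter lists, a shortened PML/RARA list, merged peaks, other flanks, length ranges and overlap rules. Counting was tested on simulated peaks. Python 3.11.15, pandas 2.3.3, NumPy 2.4.6 and SciPy 1.17.1 were used.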

Additional observations from a re-analysis of the deposited data

How the results depend on the processing

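Over 84 alternatives for 14 results, 52 stayed close to the reported value (within 1.5 times for counts, within the exact interval for shares) and 32 moved; the causes were not tested. With a minimum −log10 q of 5, or a minimum fold of 5, the PML body kept 1 PML/RARA peak, and 76.1% and 76.3% of genes of like length had as many or more. With only the 9819 PML/RARA peaks of highest −log10 q, the PML body kept 1 (43.0% of genes) and the PML window 3, while the RARA body kept 2 (9.36% of genes) and its window 3. The share for RARA was 1.18% with −log10 q of at least 5. The PML share was 42.1% with rows within 500 bases merged, 56.3% among genes with a PML/RARA end peak and 61.5% by bases covered. Among genes on the same chromosome the shares were 53.3% for PML and 2.94% for RARA. Flanks of 25 and 100 kb gave the PML window 7 and 21 PML/RARA peaks.

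For PPARα with −log10 q of at least 5 the PML window kept 1 peak, which overlapped PML/RARA, and the RARA body 1. With fold of at least 5 the RARA body also kept 1. The share of genes with as many PPARα peaks as PML was 32.2% and 38.1% under these 2 rules, 43.1% for lengths of 0.9 to 1.1 times, 61.3% among genes with a PML/RARA end peak and 33.4% by bases covered. For RARA it was 31.5% and 37.0% under the 2 rules, 6.57% among genes with a PML/RARA end peak and 0.886% by bases covered. With the shortened list 1 PPARα peak of the PML window overlapped PML/RARA. No paired analysis was possible because each antibody has 1 list and no replicate. Unknown depth limits every statement that no peak was called.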

Other observations

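The peaks of RARA inside its body, with none at its annotated ends, made an uncommon combination among genes of like length. Of the 2031 genes, 677 (33.3%) had no PML/RARA peak within 1 kb of either end, and 4 of all 2031 (0.197%) had none there and 9 or more in the body. Counts of at least 9 PML/RARA and 2 PPARα peaks together occurred in 11 genes (0.542%). For PML, at least 2 and 1 occurred together in 517 of 2006 genes (25.8%). PPARα peaks covered as many bases as in RARA in 18 of the 2031 genes. These conditions were chosen after the values of RARA were seen, so they describe it and test nothing.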
